A study of Mus musculus with 6 samples.

Results

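The 39 genes described here are genes of the lysosome and of autophagy, taken as a list of symbols. All 39 were found among the 23329 symbols of the count tables and all 39 passed the filter on low counts, which left 14838 genes tested. They comprise 23 lysosomal genes, 3 genes known chiefly from myeloid cells (Cd68, Laptm5 and Ctss) and 13 autophagy genes. The lysosome is the acidic compartment in which cells digest proteins, sugar chains and lipids, and autophagy is the route that wraps cytoplasm in a membrane and delivers it there. Cathepsins are the lysosomal proteases, glycosidases and lipases take apart sugars and lipids, and the ATG and Atg8-type proteins build the autophagosome. The transcription factor TFEB is known to switch on many of these genes through a short palindromic DNA element. In the brain the pathway is known both from endothelial cells and, at high levels, from microglia, the resident phagocytes.

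RNA was sequenced from brain endothelial cells isolated with magnetic beads from 8-week-old C57BL/6 mice and not cultured. The libraries labelled GLUT1EC-/-, from mice that lack the glucose carrier GLUT1 in endothelial cells according to their genotype label, number 3, and so do the libraries from wild-type (WT) littermates. The labels name neither the Cre line that removed the gene nor the sex of the animals. Total counts ran between 35323299 and 37868681 in the libraries labelled GLUT1EC-/- and between 31874662 and 39424384 in WT. Levels are given as CPM, the counts of a gene per 1000000 counts of the scaled library. Slc2a1, which encodes GLUT1, was at 4348 ± 927 CPM in the libraries labelled GLUT1EC-/- and 4212 ± 250 CPM in WT (SD, n = 3 each), with an adjusted p of 0.921 in edgeR. Its counts overlap between genotypes, so the directions below compare libraries by their labels alone. The 12 endothelial markers, Slc2a1 among them, summed to 19454, 23738 and 19671 CPM in the libraries labelled GLUT1EC-/- and to 20799, 20755 and 21801 CPM in WT, and none was near 0. Flt1, Tek and Emcn were lower in every library labelled GLUT1EC-/- than in every WT library, and Pecam1 was higher. Of all genes tested, 11.2% were lower and 11.7% higher in this way. In edgeR 0 of the 12 had an adjusted p under 0.05. GLUT1EC-/- 2 stood apart, since its mean correlation with the rest of its group, taken over genes, was 0.964, while the remaining libraries had 0.972 to 0.989, and log2 fold changes without it are given where its value stood far from the others of its group. Its scaling factor (TMM) was 0.884, against 1.01 to 1.05 in the remaining libraries, and a lower factor raises every CPM of a library.

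Of the 39 genes, 2 differed between the groups: the protease genes Lgmn and Ctsd, which were 2.94-fold and 2.34-fold higher in the libraries labelled GLUT1EC-/-. A gene was called at an adjusted p under 0.05 in the quasi-likelihood test of edgeR, corrected over all 14838 genes. Over all genes tested, 0.863% were called higher and 0.445% lower, 1.31% in all, and 2.89% passed at 0.1. DESeq2 called 5.48% and limma-voom 0.997%, edgeR with RLE scaling 1.35%, with upper-quartile scaling 1.13%, with library size alone 0.93%, with no filter 1.33% and with a filter at 1 CPM 1.23%. A term for the series of animal numbers left 0.0944%. Leaving out WT 1, WT 2 or WT 3 left 0%, 0.00661% and 0.0332% called, and leaving out GLUT1EC-/- 1, 2 or 3 gave 0.213%, 5.73% and 1.88%. The calls fell to proteases, while none of the 13 autophagy genes passed. Besides these 2 genes, 4 of the lysosomal proteases (Ctsb, Ctsa, Ctsl and Ctsc), the growth factor precursor gene Grn, Lipa, Lamp2, Npc2 and the myeloid gene Ctss had every library labelled GLUT1EC-/- above every WT library without passing the test. This makes 11 of the 39 genes whose groups did not overlap upwards, against 11.7% of all genes tested, and 3 (Ctso, Map1lc3a and Gabarapl1) downwards, against 11.2%, which is 22.9% in either direction. In these bulk samples, fewer cells of a type and less RNA per cell cannot be told apart.

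**Figure D1:**
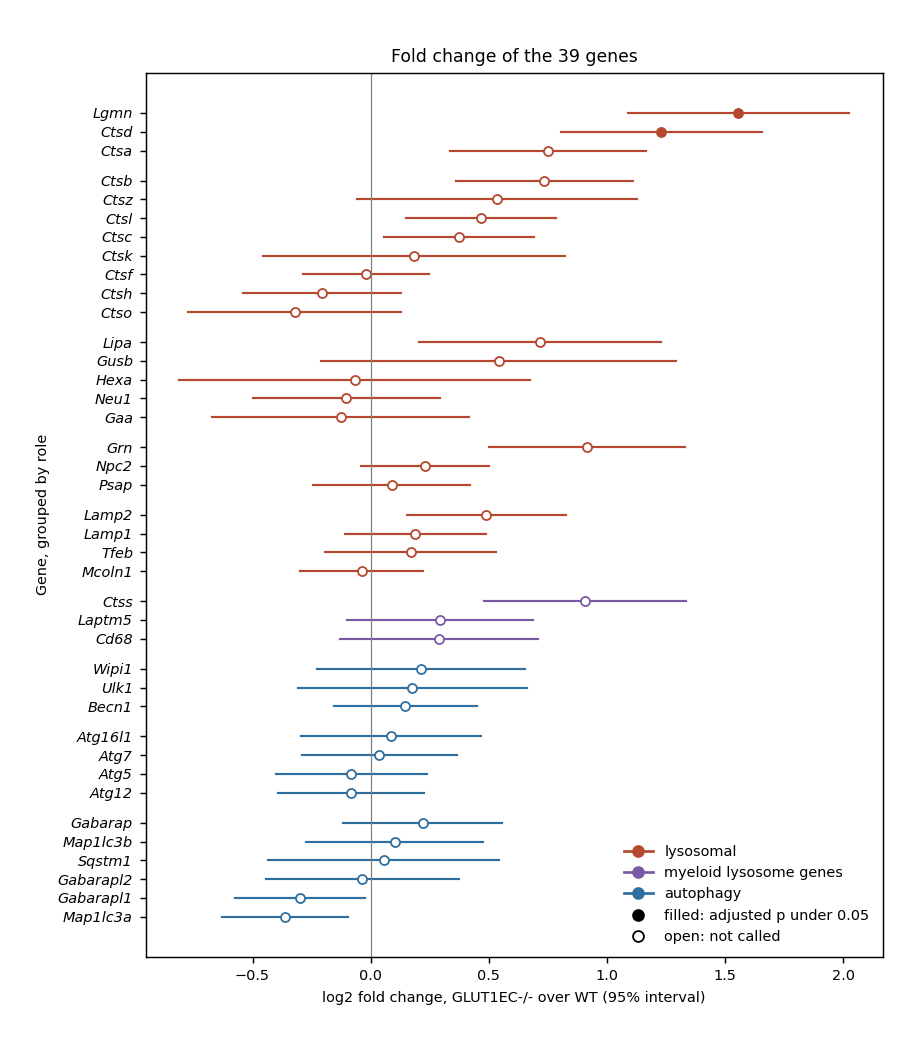
Log2 fold change of each of the 39 genes (x axis, libraries labelled GLUT1EC-/- over WT) with its 95% interval, grouped by role down the page, from edgeR. Filled points passed an adjusted p of 0.05, which are Lgmn at 1.56 and Ctsd at 1.23, and the autophagy genes lie between -0.36 and 0.22.

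The DNA just before 5 of these genes is shown because it holds, or lacks, the letters of the element that TFEB is known to bind. The sequences are the 110 bases before a RefSeq start site (GRCm38.p6), written along the strand of the gene, with each TCACGTG on either strand in capitals.
Ctsd, chr7:142387828-142387937, minus strand: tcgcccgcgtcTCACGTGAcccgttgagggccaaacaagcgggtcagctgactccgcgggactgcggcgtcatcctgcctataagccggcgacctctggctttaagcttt
Lgmn, chr12:102439729-102439838, minus strand: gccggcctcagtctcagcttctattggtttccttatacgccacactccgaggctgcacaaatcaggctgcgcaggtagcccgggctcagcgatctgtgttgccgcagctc
Ctsa, chr2:164833663-164833772, plus strand: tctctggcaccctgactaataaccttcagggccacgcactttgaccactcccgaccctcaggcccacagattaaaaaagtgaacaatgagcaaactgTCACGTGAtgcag
Mcoln1, chr8:3500409-3500518, plus strand: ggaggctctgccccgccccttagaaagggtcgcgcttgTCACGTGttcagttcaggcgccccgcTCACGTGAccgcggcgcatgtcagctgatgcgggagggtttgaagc
Lamp1, chr8:13159051-13159160, plus strand: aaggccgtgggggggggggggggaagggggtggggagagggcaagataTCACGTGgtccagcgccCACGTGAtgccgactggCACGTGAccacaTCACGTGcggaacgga

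Matches to TCACGTG stood 99 and 245 bases before the start site in Ctsd, of which the more distant lies outside the stretch printed, 13 bases before and 4 after it in Ctsa, 72 and 46 before it in Mcoln1, and 62, 45, 28 and 16 before it in Lamp1. The Lgmn stretch printed holds none. A second RefSeq start site of Lgmn, whose first 30 bases were in no GENCODE M21 transcript of the gene, has 1 match 50 bases before it, and a second one of Ctsa, likewise in no such transcript, has none. Promoters (250 bases before to 50 after the start) were listed for 33 of the 39 genes, 38 promoters in all. TCACGTG on either strand was in 6 of the 26 promoters of the lysosomal genes (23.1%), in 1 of 9 of the autophagy genes (11.1%), in 0 of 3 of the myeloid genes and in 3.77% of all 32851 promoters. Its core CACGTG, which lies within it, was in 8 of 26 (30.8%), 2 of 9 (22.2%), 0 of 3 and 7.15%. Ctsd, with such a match, and Lgmn, with none in the stretch printed, were both called higher, and Mcoln1 and Lamp1, with 2 and 4, were not called. A match is a description of these letters and says nothing on whether a factor binds there.

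Lgmn encodes legumain, the lysosomal endopeptidase that cuts after asparagine and processes cathepsins (GRCm38 chromosome 12, 102394084 to 102439813, minus strand). It was at 288, 308 and 328 CPM in the libraries labelled GLUT1EC-/- and at 84.3, 90.6 and 139 CPM in WT. The groups were clear of each other, with a gap larger than the spread within either. In edgeR the log2 fold change was 1.56 (SE 0.20, adjusted p = 0.0184), and the 95% interval of the 2.94-fold difference ran from 2.13 to 4.07. Animal numbers in the labels fall into the 200s (GLUT1EC-/- 1, WT 1 and WT 2) and the 500s (GLUT1EC-/- 2, GLUT1EC-/- 3 and WT 3). Within these the log2 difference of mean CPM was 1.72 and 1.19, each resting on 1 library in 1 of the groups. The call was kept without GLUT1EC-/- 2 (edgeR adjusted p = 0.0043), GLUT1EC-/- 3 (0.0235) or WT 3 (0.0402). It was lost without WT 1 (edgeR adjusted p = 0.145), WT 2 (0.114) or GLUT1EC-/- 1 (0.0608), and with the number series as a term (0.0569), while the log2 fold change stayed between 1.42 and 1.81.

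Ctsd encodes cathepsin D, the aspartic protease that is the main endopeptidase of many lysosomes (chromosome 7, 142375911 to 142388038, minus strand). Its level was 1194, 1308 and 1815 CPM in the libraries labelled GLUT1EC-/- and 558, 641 and 642 CPM in WT. The WT libraries lay close together and GLUT1EC-/- 3 was the highest of all. In edgeR the log2 fold change was 1.23 (SE 0.19, adjusted p = 0.0259), with a 95% interval of 1.75 to 3.15 around the 2.34-fold difference. Animals numbered in the 200s gave a log2 difference of 0.99, and those in the 500s 1.28. Without GLUT1EC-/- 2 or 3 the call held (edgeR adjusted p = 0.0041 and 0.0239). It was lost without WT 1, WT 2, WT 3 or GLUT1EC-/- 1 (edgeR adjusted p = 0.198, 0.143, 0.114 and 0.0608) and with the number series as a term (0.106), while the log2 fold change stayed between 1.14 and 1.35 in these fits. Per kilobase of annotated exon, Ctsd was the most abundant of the 39 genes in the libraries labelled GLUT1EC-/-, at 612 CPM per kb ahead of Psap at 402 and Sqstm1 at 366. In WT it stood at 261 CPM per kb, below Psap at 378 and Sqstm1 at 352, 2 genes whose WT libraries overlap. Its exons overlap those of Gm49369, annotated on the same strand, so the 2 genes' reads cannot be told apart with certainty.

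**Figure D2:**
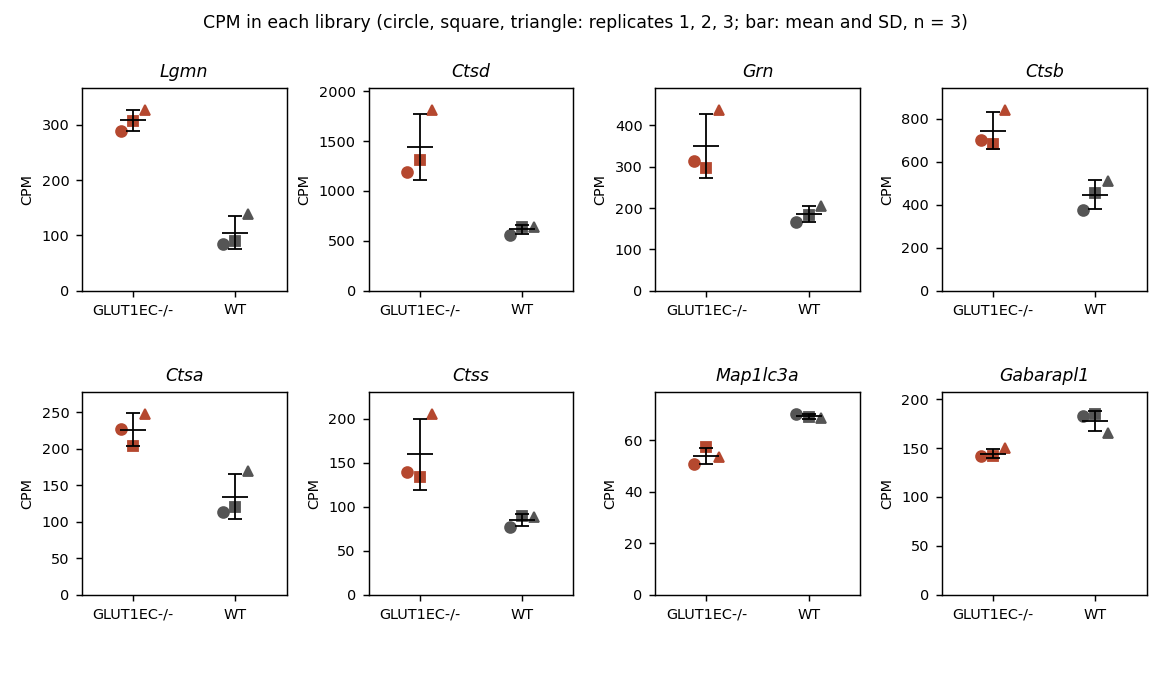
CPM (y axis, starting at 0) of 8 genes in each library labelled GLUT1EC-/- and each WT library, with mean and SD (n = 3). In Lgmn, Ctsd, Grn, Ctsb, Ctsa and Ctss every library labelled GLUT1EC-/- is above every WT library, and in Map1lc3a and Gabarapl1 every one is below.

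Ctsa, listed with Lgmn and Ctsd apart from the cysteine cathepsins, encodes the serine carboxypeptidase that also protects neuraminidase and beta-galactosidase. It was at 227, 203 and 248 CPM in the libraries labelled GLUT1EC-/- and at 113, 120.4 and 169.6 CPM in WT. The groups did not overlap, and the log2 fold change of 0.75 (SE 0.18) did not pass (edgeR adjusted p = 0.103). Without GLUT1EC-/- 2 it did (edgeR adjusted p = 0.0247). Exons of Pltp and Neurl2 overlap it on the other strand, as those of Fdft1 do Ctsb and those of Fam171a2 do Grn, and the strand setting of the counting is not given in the sources used here.

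None of the 8 cysteine cathepsins passed in edgeR, and 3 had an unadjusted p under 0.05, all higher (8.16% of all genes tested); DESeq2 called 1 and limma-voom 0. Ctsb, the broadly expressed cathepsin B, had 702, 684 and 842 CPM in the libraries labelled GLUT1EC-/- and 375, 455 and 507.6 CPM in WT. These groups did not overlap, and the log2 fold change was 0.74 (SE 0.16; adjusted p in edgeR = 0.080, or 0.0164 without GLUT1EC-/- 2). Ctsl, cathepsin L, had 269, 346 and 299.5 CPM in the libraries labelled GLUT1EC-/- and 219, 216 and 226 CPM in WT (edgeR log2 fold change 0.47, SE 0.14, adjusted p = 0.170). The WT values spanned little, and GLUT1EC-/- 2 was the highest library. Ctsz, the carboxypeptidase cathepsin X, had 138, 109 and 222 CPM in the libraries labelled GLUT1EC-/- and 93.8, 102 and 128 CPM in WT. There the groups overlapped, since GLUT1EC-/- 2 was below WT 3, and the log2 fold change was 0.73 without that library and 0.53 with it. Ctsc, which activates serine proteases of immune cells, was at 176 ± 5.62 CPM in the libraries labelled GLUT1EC-/- and 136 ± 17.9 CPM in WT. Ctsh, an aminopeptidase, had 229, 232 and 298 CPM in the libraries labelled GLUT1EC-/- and 289, 284 and 303 CPM in WT, and Ctsf was at 42.1 ± 1.08 CPM in the libraries labelled GLUT1EC-/- and 42.7 ± 2.20 CPM in WT, so the groups of both overlapped. Ctso, whose groups did not overlap, was at 57.7 ± 15.1 CPM in the libraries labelled GLUT1EC-/- and 72.1 ± 2.44 CPM in WT (edgeR log2 fold change -0.32, adjusted p = 0.499). Its groups nearly met, with GLUT1EC-/- 3 at 69.15 CPM and WT 3 at 69.30 CPM. Without GLUT1EC-/- 2, which was at 40.6 CPM, the log2 fold change of Ctso was -0.13. Ctsk, the collagen-degrading cathepsin of osteoclasts, was the lowest of all members at 3.62 ± 0.816 CPM in the libraries labelled GLUT1EC-/- and 3.19 ± 0.653 CPM in WT. Summed over the 11 proteases, cathepsins and legumain together, the level was 3329, 3460 and 4339 CPM in the libraries labelled GLUT1EC-/- and 1967, 2181 and 2370 CPM in WT.

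Among the 5 genes for glycosidases and the acid lipase, 0 passed in edgeR, with 1 at an unadjusted p under 0.05, and DESeq2 and limma-voom called 0. Lipa, the lipase that frees cholesterol from low-density lipoprotein, had 204, 306 and 178 CPM in the libraries labelled GLUT1EC-/- and 120.0, 134 and 164 CPM in WT (edgeR log2 fold change 0.72, SE 0.22, adjusted p = 0.190). Its groups did not overlap, with GLUT1EC-/- 2 the highest. Gusb, beta-glucuronidase, had 71.7, 33.7 and 98.9 CPM in the libraries labelled GLUT1EC-/- and 47.7, 45.1 and 47.6 CPM in WT. Hexa, the alpha chain of beta-hexosaminidase, had 79.4, 41.5 and 121 CPM in the libraries labelled GLUT1EC-/- and 78.4, 87.7 and 87.1 CPM in WT. In both glycosidase genes GLUT1EC-/- 2 lay below every WT library and GLUT1EC-/- 3 above every one. Gaa, the glycogen-degrading acid alpha-glucosidase, followed the same order with 141, 85.5 and 169 CPM in the libraries labelled GLUT1EC-/- and 133, 137 and 162 CPM in WT. Without GLUT1EC-/- 2, Gusb passed with 0.86 on the log2 scale (edgeR adjusted p = 0.0071), against 0.54 with all libraries (edgeR adjusted p = 0.497), and Hexa had 0.24 without that library and -0.07 with it. Neu1, the sialidase, had 52.5, 73.5 and 48.2 CPM in the libraries labelled GLUT1EC-/- and 64.0, 60.9 and 62.1 CPM in WT. In Neu1, as in Lipa, GLUT1EC-/- 2 was the highest library, and GLUT1EC-/- 3 was below every WT library, the reverse of Gusb, Hexa and Gaa. The log2 fold changes of Lipa, Gaa and Neu1 were 0.45, 0.10 and -0.32 without GLUT1EC-/- 2 and 0.72, -0.13 and -0.10 with it.

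Of the 3 genes for soluble cofactors and other proteins of the lysosomal lumen, 0 passed in edgeR, with 1 at an unadjusted p under 0.05; DESeq2 called 1 and limma-voom 0. Grn encodes progranulin, a secreted protein that is cut into granulins in the lysosome and whose loss is known to impair it. It was at 315, 297 and 438 CPM in the libraries labelled GLUT1EC-/- and at 167, 184 and 206 CPM in WT. The groups did not overlap, and the log2 fold change of 0.92 (SE 0.18) missed the threshold (edgeR adjusted p = 0.0569), which it passed without GLUT1EC-/- 2 (edgeR adjusted p = 0.0069). Npc2, the soluble cholesterol carrier, had 148, 147 and 163 CPM in the libraries labelled GLUT1EC-/- and 127, 130.03 and 133 CPM in WT, a separation of small size (edgeR log2 fold change 0.23, SE 0.12, adjusted p = 0.434). Psap, the precursor of the saposins that help hydrolases reach their lipids, had 1136, 943 and 1232 CPM in the libraries labelled GLUT1EC-/- and 998, 1067 and 1046 CPM in WT. For Psap the groups overlapped, and the 95% interval of the fold was 0.845 to 1.34.

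The lysosomal membrane genes and Tfeb gave 0 calls among 4 in edgeR, DESeq2 and limma-voom, with 1 at an unadjusted p under 0.05. Lamp2, a membrane glycoprotein needed for fusion with autophagosomes, had 193, 209 and 163 CPM in the libraries labelled GLUT1EC-/- and 119, 142 and 142 CPM in WT (edgeR log2 fold change 0.49, SE 0.15, adjusted p = 0.175). Lamp1, the other main coat protein of the membrane, had 477, 555 and 554 CPM in the libraries labelled GLUT1EC-/- and 439.9, 478 and 474 CPM in WT. Its groups overlapped by the lowest library labelled GLUT1EC-/-, while those of Lamp2 did not. Mcoln1, the calcium channel through which lysosomes activate TFEB, was at 79.8 ± 0.273 CPM in the libraries labelled GLUT1EC-/- and 81.9 ± 3.67 CPM in WT, 0.974-fold (95% interval 0.814 to 1.17). Tfeb was at 69.8 ± 13.9 CPM in the libraries labelled GLUT1EC-/- and 62.1 ± 1.55 CPM in WT (edgeR adjusted p = 0.664), with a log2 fold change of 0.17, or -0.01 without GLUT1EC-/- 2.

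Of the 3 myeloid genes, 0 passed in edgeR, with 1 at an unadjusted p under 0.05; DESeq2 called 1 and limma-voom 0. Ctss, the cathepsin of antigen-presenting cells and microglia, had 139, 134 and 206 CPM in the libraries labelled GLUT1EC-/- and 77.7, 89.6 and 88.4 CPM in WT. Its groups did not overlap, and its log2 fold change of 0.91 (SE 0.19; adjusted p in edgeR = 0.0642) was near that of Grn. It passed without GLUT1EC-/- 2 (edgeR adjusted p = 0.0076). Cd68, the macrophage lysosomal glycoprotein, had 89.3, 97.4 and 137 CPM in the libraries labelled GLUT1EC-/- and 79.8, 87.1 and 97.7 CPM in WT (edgeR log2 fold change 0.29, adjusted p = 0.515). Laptm5, a lysosomal membrane protein of blood cells, had 138, 124 and 174 CPM in the libraries labelled GLUT1EC-/- and 103, 135 and 118 CPM in WT (edgeR log2 fold change 0.29, adjusted p = 0.483). In Cd68 and Laptm5 the groups overlapped, and GLUT1EC-/- 3 was the highest library in all 3 genes. Whether Ctss differed in its change from the other 2 was not tested.

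Of 15 microglia markers tested, 3 were called higher (C1qb, C1qc and Trem2), 0 were called lower and 12 did not pass. With the number series as a term the adjusted p in edgeR was 0.117 for C1qb, 0.0761 for C1qc and 0.12 for Trem2, and none of the 3 passed when any 1 WT library was left out. Over the 6 fits that each leave out 1 library, their log2 fold changes stayed between 1.17 and 1.85. The 15 together summed to 985, 748 and 1552 CPM in the libraries labelled GLUT1EC-/- and to 491, 554 and 581 CPM in WT, and none was at 0. Over all 14838 genes tested, 4574 were above every WT library in GLUT1EC-/- 1, 5870 in GLUT1EC-/- 2 and 4686 in GLUT1EC-/- 3. In GLUT1EC-/- 2 a further 6027 were below every WT library, so either position was common there. The 15 markers did not move alike across libraries: 12 were above every WT library in GLUT1EC-/- 1, 15 in GLUT1EC-/- 3 and 5 in GLUT1EC-/- 2, where 9 were below every WT library. Those 9 include Cx3cr1, the fractalkine receptor, at 48.6, 16.4 and 75.8 CPM in the libraries labelled GLUT1EC-/- and 22.9, 27.2 and 31.7 CPM in WT, and the homeostatic marker Tmem119 at 18.6, 7.32 and 30.3 CPM in the libraries labelled GLUT1EC-/- and 8.66, 8.24 and 9.98 CPM in WT. C1qc, a complement subunit, was instead at 184, 174 and 276 CPM in the libraries labelled GLUT1EC-/- and 58.6, 63.6 and 68.6 CPM in WT. Of the 5 glycosidase and lipase genes, Gusb, Hexa and Gaa were below every WT library in GLUT1EC-/- 2, as Cx3cr1 and Tmem119 were, while Neu1 and Lipa were above every WT library there. Lgmn, Ctsd, Ctsb, Ctsa, Grn and Ctss were above every WT library in GLUT1EC-/- 2 as well, where Lgmn stood at 308 CPM. The 6 border macrophage markers summed to 98.5, 101 and 119 CPM in the libraries labelled GLUT1EC-/- and 65.3, 93.6 and 84.4 CPM in WT. Of these 6, edgeR called 0, DESeq2 3 and limma-voom 0. At an unadjusted p under 0.05 in edgeR, 2 were higher and 1 lower (8.16% and 6.31% of all genes tested). The 6 monocyte markers summed to 17.8, 6.09 and 7.36 CPM in the libraries labelled GLUT1EC-/- against 77.4, 129.9 and 44.5 CPM in WT, with 3 called lower. In WT most of this sum was Itgal, at 55.7, 89.1 and 26.7 CPM. Ccr2 was higher by value, at 2.33 ± 1.68 CPM in the libraries labelled GLUT1EC-/- and 1.62 ± 0.655 CPM in WT, and the other 5 were lower. The 3 called genes passed with the number series as a term, and none passed when any 1 WT library was left out. The part of microglia, border macrophages and monocytes in the lysosomal differences was not tested.

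**Figure D3:**
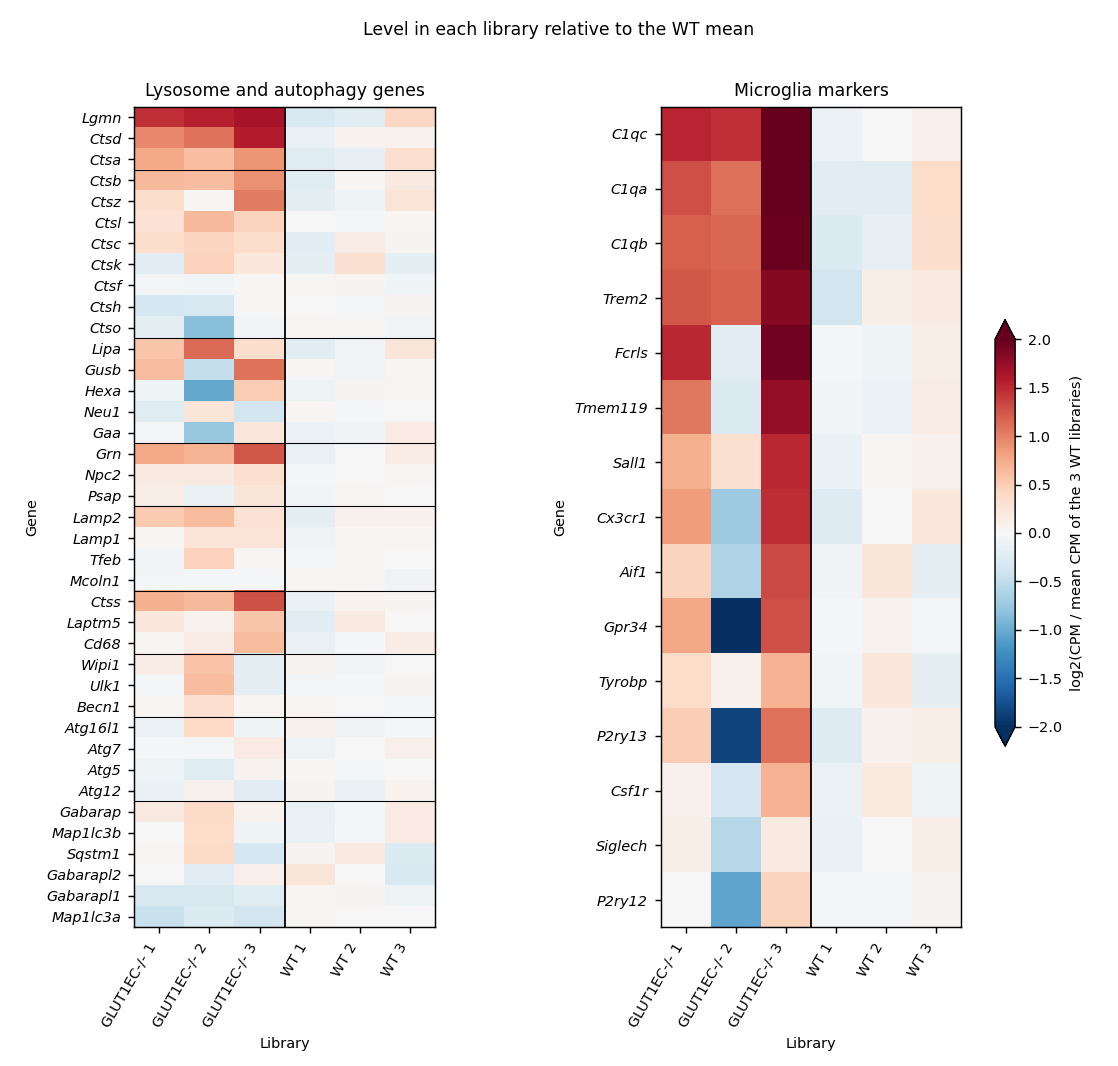
Level of each lysosome and autophagy gene (left, by role) and each of 15 microglia markers (right) in each library, as log2 of its CPM over the mean of the 3 WT libraries (colour). Lgmn and Ctsd are red in all 3 libraries labelled GLUT1EC-/-, while Gusb and Hexa, like Cx3cr1 and Tmem119, are blue in GLUT1EC-/- 2 and red in GLUT1EC-/- 3.

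Autophagy genes gave 0 calls among 13 in edgeR, DESeq2 and limma-voom, with 0 higher and 2 lower at an unadjusted p under 0.05 (8.16% and 6.31% of all genes tested). Their fold changes stayed within -0.36 and 0.22 on the log2 scale. Both with a p under 0.05 belong to the Atg8 family, the ubiquitin-like proteins that are joined to lipid on the growing autophagosome. Map1lc3a had 50.8, 57.2 and 53.4 CPM in the libraries labelled GLUT1EC-/- and 70.2, 68.8 and 68.4 CPM in WT. The groups were clear of each other, and the log2 fold change of -0.36 (SE 0.12; adjusted p in edgeR = 0.200) passed only without GLUT1EC-/- 2, at -0.41 (edgeR adjusted p = 0.0360). Gabarapl1 had 141, 142 and 149.5 CPM in the libraries labelled GLUT1EC-/- and 182, 185 and 165 CPM in WT (edgeR log2 fold change -0.30, SE 0.12, adjusted p = 0.299). The other 3 Atg8 genes had log2 fold changes between -0.04 and 0.22, and their groups overlapped. Map1lc3b was at 233 ± 40.0 CPM in the libraries labelled GLUT1EC-/- and 217 ± 24.1 CPM in WT, and Gabarap was at 256 ± 28.5 CPM in the libraries labelled GLUT1EC-/- and 219 ± 24.7 CPM in WT. Gabarapl2 was at 21.8 ± 2.32 CPM in the libraries labelled GLUT1EC-/- and 22.3 ± 4.26 CPM in WT. Without GLUT1EC-/- 2, the log2 fold change of Map1lc3b was -0.05, against 0.10 with it. Sqstm1, the cargo receptor p62 that autophagy itself degrades, had 1216, 1542 and 925 CPM in the libraries labelled GLUT1EC-/- and 1232, 1339 and 973 CPM in WT. Here the libraries varied within each group and the groups overlapped (log2 fold change 0.06, or -0.01 with library size alone; 1.04-fold, 95% interval 0.741 to 1.46).

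Initiation genes were led by GLUT1EC-/- 2. Ulk1, the kinase that starts the process, had 133, 211 and 120.0 CPM in the libraries labelled GLUT1EC-/- and 135, 134 and 142 CPM in WT. Becn1, a subunit of the lipid kinase complex that follows, had 109.7, 135 and 110.1 CPM in the libraries labelled GLUT1EC-/- and 110.2, 106 and 104 CPM in WT. Wipi1, which reads the lipid made by that complex, had 41.7, 56.3 and 33.2 CPM in the libraries labelled GLUT1EC-/- and 39.3, 36.3 and 37.6 CPM in WT. In all 3 genes GLUT1EC-/- 2 was the highest library and the groups overlapped, and without it the log2 fold changes were -0.12, 0.04 and -0.02. The 4 conjugation genes, which attach Atg8 proteins to lipid, had log2 fold changes between -0.08 and 0.09. Atg5 had 21.9, 19.4 and 24.2 CPM in the libraries labelled GLUT1EC-/- and 23.5, 22.8 and 23.03 CPM in WT. Atg12, its conjugation partner, had 47.4, 54.8 and 44.8 CPM in the libraries labelled GLUT1EC-/- and 53.6, 47.3 and 54.7 CPM in WT. Atg7 and Atg16l1 were at 19.9 ± 1.66 and 41.5 ± 8.67 CPM in the libraries labelled GLUT1EC-/- and at 19.4 ± 1.42 and 39.1 ± 2.17 CPM in WT, and the log2 fold change of Atg16l1 was -0.10 without GLUT1EC-/- 2 and 0.09 with it. The 95% intervals of the fold over the 13 autophagy genes reached down to 0.647, in Map1lc3a, and up to 1.58, in Ulk1.

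Set side by side, the 11 cathepsins and legumain had 2 genes called, 6 non-overlapping upwards, 1 downwards (11.7% and 11.2% of all genes tested) and a median log2 fold change of 0.47. The 8 other hydrolases and cofactors had 0 called by edgeR (2 at an unadjusted p under 0.05, both higher; 1 by DESeq2 and 0 by limma-voom), 3 non-overlapping upwards, 0 downwards and a median of 0.16. The 13 autophagy genes had 0 called, 0 non-overlapping upwards, 2 downwards and a median of 0.06, and all genes tested had a median of 0.01. By value, 8 of 11, 5 of 8 and 8 of 13 were higher in the libraries labelled GLUT1EC-/-, and with library size alone as the scaling 8, 5 and 6. Of all 14838 genes tested, 7647 were higher by value, or 6792 with library size alone, and 8.16% were higher at an unadjusted p under 0.05. Within the 200s and the 500s the medians were 0.38 and 0.41 for the cathepsins and legumain and -0.08 and 0.07 for the autophagy genes. Without GLUT1EC-/- 2 they were 0.36 and -0.05, and without GLUT1EC-/- 3 0.39 and 0.16. Summed levels of the 13 autophagy genes were 2305, 2872 and 1977 CPM in the libraries labelled GLUT1EC-/- and 2327, 2442 and 2136 CPM in WT, which overlap.

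A further 147 genes of the pathway, of which 146 were tested, gave 2 calls, both higher, of which 1 is described here. Over all genes tested, 0.863% were called higher and 1.31% in either direction. Cst7, cystatin F, an inhibitor of cathepsins made by activated myeloid cells, was 1 of 4 cystatin genes to pass, with 7.31, 3.97 and 8.31 CPM in the libraries labelled GLUT1EC-/- and 0.248, 0.409 and 0.714 CPM in WT. Its log2 fold change was 3.80 (SE 0.46; adjusted p in edgeR = 0.0164), and the adjusted p lay between 0.0574 and 0.121 when GLUT1EC-/- 1 or any 1 WT library was left out. Cst3, cystatin C, the most abundant cystatin, was at 468 ± 99.6 CPM in the libraries labelled GLUT1EC-/- and 586 ± 70.8 CPM in WT (edgeR adjusted p = 0.462). The 32 further lysosomal hydrolases had a median log2 fold change of 0.15, with 7 higher and 0 lower at an unadjusted p under 0.05, and 28 of 32 were higher by value, 27 with upper-quartile scaling or library size alone. Over all genes tested, 8.16% were higher and 6.31% lower at that p. By value 7647 of all 14838 genes were higher, 7025 with upper-quartile scaling and 6792 with library size alone.

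The other lists had 0 calls in edgeR. Of 22 further cofactors and membrane proteins, 2 were higher and 0 lower at an unadjusted p under 0.05, 1 was called by DESeq2 and 0 by limma-voom; Cd63, a tetraspanin of late endosomes, had the smallest p, at 57.2 ± 8.44 CPM in the libraries labelled GLUT1EC-/- and 32.5 ± 6.82 CPM in WT (edgeR log2 fold change 0.81, adjusted p = 0.0890, or 0.0248 without GLUT1EC-/- 2). In the 16 subunits tested of the V-ATPase, the proton pump that acidifies the lysosome, 9 had groups that did not overlap upwards (11.7% of all genes tested), at small sizes: the median log2 fold change was 0.17 and the largest 0.24, with 0 at an unadjusted p under 0.05 and 0 called by DESeq2 or limma-voom. Atp6v1d, which had the smallest p of them, was at 54.1 ± 0.538 CPM in the libraries labelled GLUT1EC-/- and 46.0 ± 0.931 CPM in WT (edgeR adjusted p = 0.393). DESeq2 and limma-voom also called 0 of the 6 mannose-6-phosphate sorting genes, the 19 genes of the TFEB relatives and mTORC1 at the lysosome, the 24 of further autophagy machinery, the 11 further receptors and the 12 fusion genes. At an unadjusted p under 0.05 these lists held 1, 1, 0, 0 and 0 genes, and 8.16% of all genes tested were higher and 6.31% lower. Their genes with the smallest p were Igf2r (log2 fold change 0.32), Lamtor3 (0.32), Vmp1 (0.28), Calcoco1 (-0.24) and Snap29 (0.25), with edgeR adjusted p between 0.303 and 0.446.

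**Figure D4:**
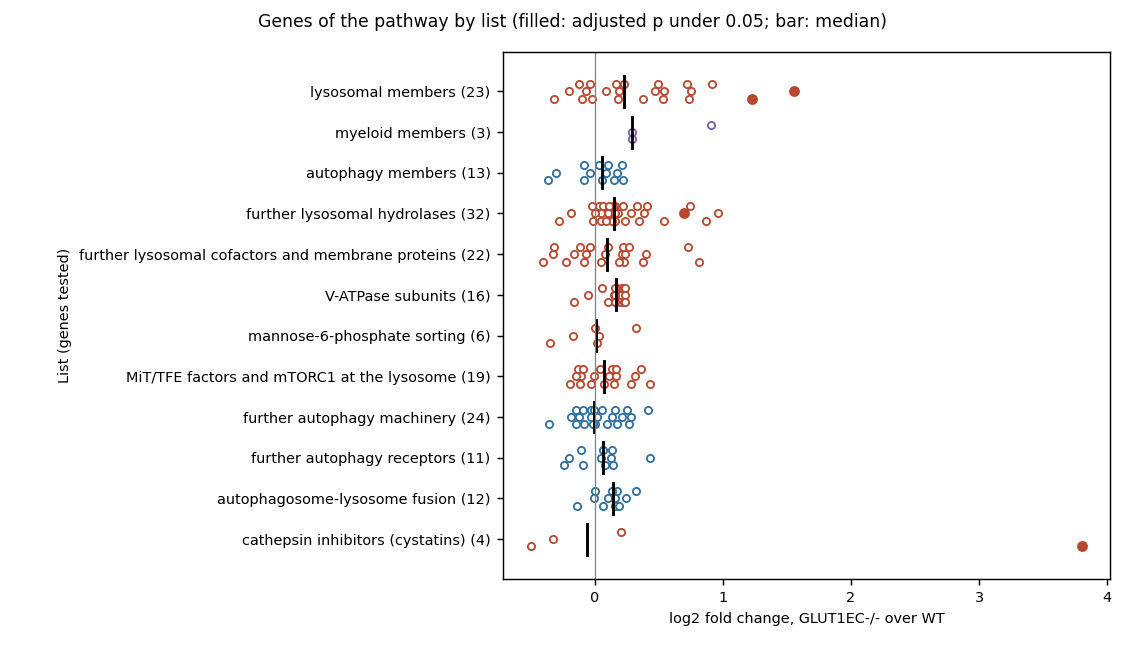
Log2 fold change (x axis, libraries labelled GLUT1EC-/- over WT) of each tested gene by list (y axis, with the number tested), with the median as a bar and called genes filled. Medians of the 13 autophagy members and the 3 further autophagy lists drawn lie between -0.01 and 0.15, and the filled points include Lgmn, Ctsd and Cst7.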

How the data were processed

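Reads were aligned with STAR to GRCm38 and counted per gene with featureCounts, per the submitters' processing notes; versions, annotation and strand setting are not given in the sources used here. Libraries were stranded mRNA, read as single ends of 100 bp, per the labels' protocols. Each deposited file gives, for 1 library, unnormalised counts by gene symbol. The 3 libraries of a group have their own animal numbers.

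The main test was the quasi-likelihood F test of edgeR 4.0.16 (R 4.3.3) fitted to the 6 libraries by genotype alone, after TMM scaling and removal of low genes by filterByExpr (at least 10 counts, total at least 15), with robust dispersion and Benjamini-Hochberg adjustment over 14838 genes at 0.05. The biological coefficient of variation was 23.2%. CPM use the TMM factors; standard errors are the log2 fold change over the square root of F. Intervals rest on the spread between these libraries only, with dispersions moderated over genes. The members and lists were chosen with earlier results of these data known, so counts over them are descriptions. Members given in every library are those called with all or with any 5 libraries, and the 3 myeloid genes. The 2 with the smallest p and the most abundant per kilobase in each role are given so too. Ctsh, Gaa and Neu1 were added outside this rule. Positions and exon lengths are from GENCODE M21 and promoters from RefSeq, both GRCm38. In the wider lists, 7 genes were found under an older symbol. Some genes of the wider lists are counted but not reported here by name. The script was tested on simulated counts. As alternatives, DESeq2 1.42.0, limma-voom (limma 3.58.1), scaling by RLE, by the upper quartile or by total counts, no filter, a filter of 1 CPM in 3 libraries, a term for the series of animal numbers, dropping each library and an adjusted p of 0.1 were run.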

Additional observations from a re-analysis of the deposited data

How the results depend on the processing

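No paired analysis was possible because the labels give the animals no shared replicate numbers; replicates 1 to 3 are names given in accession order. Of 14838 genes, 194 were called; the count was 878 with DESeq2, 14 with the animal number series as a term, 429 at an adjusted p of 0.1, and 0 to 862 with 1 library left out. The 2 lysosomal calls were 5 with DESeq2, 0 with the series term, 4 at an adjusted p of 0.1 and 0 to 6 with 1 library left out. For autophagy genes the count was 0 to 1 with 1 library left out and 0 under each other alternative. For the 3 myeloid genes it was 1 with DESeq2, 1 at an adjusted p of 0.1 and 0 to 1 with 1 library left out. The 2 calls in the wider lists were 5 with DESeq2, 0 with the series term and 0 to 7 with 1 library left out. The cause of these shifts was not tested. Slc2a1 had a log2 fold change of -0.00093 with upper-quartile scaling, -0.020 with library size alone, -0.011 with the series term, and -0.15 to 0.14 with 1 library left out. Of the members given in every library, the values of Hexa, Gaa, Neu1, Ulk1, Wipi1 and Sqstm1 changed sign, without a call on either side. With 1 library left out they ran from -0.48 to 0.24 for Hexa, -0.35 to 0.10 for Gaa and -0.32 to 0.014 for Neu1. For Ulk1 they ran from -0.12 to 0.33, for Wipi1 from -0.015 to 0.38 and for Sqstm1 from -0.15 to 0.22. Sqstm1 also had -0.011 with library size alone. With 3 animals a group, where a 95% interval includes no change a difference was not detected, which does not exclude one. The p-values set each difference against the spread between these libraries only, with dispersions moderated over genes.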

Other observations

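Of the 47 further genes of autophagy machinery, receptors and fusion, 31 were above every WT library in GLUT1EC-/- 2, against 12 in GLUT1EC-/- 1 and 6 in GLUT1EC-/- 3, and 20 were below every WT library in GLUT1EC-/- 3. Over all 14838 genes tested, 4574 were above every WT library in GLUT1EC-/- 1 and 4511 below, 5870 above in GLUT1EC-/- 2 and 6027 below, and 4686 above in GLUT1EC-/- 3 and 4432 below. Of the 54 further lysosomal genes, 36 were above every WT library in GLUT1EC-/- 3, 30 in GLUT1EC-/- 1 and 21 in GLUT1EC-/- 2, where 22 were below. Mitf, a relative of TFEB, was at 12.2, 2.42 and 12.2 CPM in the libraries labelled GLUT1EC-/- and at 10.1, 9.82 and 9.46 CPM in WT. These counts were made after the values had been seen and with TMM scaling only, and no test was run on them.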
